A study of Mus musculus with 9 samples.

Results

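Ppp1r12a is the mouse gene of the myosin phosphatase targeting subunit, often called MYPT1, and it was described here as a place of transposon insertion in medulloblastomas of Lazy Piggy mice. Its members were all lines of the deposited insertion table that list Ppp1r12a as their gene, which were 20287 of 2830612 lines in the 119 tumours compared. The gene was chosen by its measured recurrence, the number of tumours with insertions listed for it. How many tumours were hit in all is therefore a description here and was not tested. Tests of how the hits split by arm and donor use the same tumours. Lines of the gene made up 0.717% of lines and 2.80% of counts.

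Myosin phosphatase removes the activating phosphate from the regulatory light chain of non-muscle and smooth muscle myosin. The Ppp1r12a protein holds the catalytic subunit Ppp1cb on myosin. The pathway is known for its control of actomyosin contraction in cell shape, division and migration. Insertional screens read a gene from the transposons that land in or near it in tumours. Sleeping Beauty, which inserts at TA, is known to land again often on the chromosome it left, and piggyBac inserts at TTAA.

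The labels name the mice lazy_piggy and the tissue their SHH medulloblastoma, without further alleles, promoters, strain or age. The Lazy Piggy element holds Sleeping Beauty (SB) and piggyBac (PB) parts, and in the design of the model tamoxifen brings on its removal by the PB transposase. The authors' sample sheet put 72 tumours in the tamoxifen arm (TAM+; 53 with the element's donor site on chromosome 10 and 19 on chromosome 7). It put 47 tumours in the untreated arm (TAM-; 37 and 10), with 0 tamoxifen days. The listed tamoxifen days of 71 TAM+ tumours ran from 4 to 249, with a median of 49. DNA counts hold no expression, so the labelled tissue could not be checked against marker genes.

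Each tumour had 3 kinds of library: IR from the SB ends, JX from the boundary of the SB and PB parts, and PB from the PB ends. Both ends were summed per tumour, which is the replicate. Counts per tumour ranged from 295999 to 6337624 in IR, from 116836 to 2025775 in JX and from 1714 to 2853048 in PB. The thinnest PB libraries therefore put least weight behind their shares. Intervals below are exact binomial intervals over tumours. They hold no error of read counting, and reads carry no molecular identifiers. A site was called where positions joined within 10 bp held 10 counts or more and reached 1% of what the tumour's highest site held. A site called in several tumours was credited to the one with the highest share. Tumours are named by arm and number, in falling order of their highest Ppp1r12a share of IR counts, and then of the other kinds.

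One set of libraries went against its labels in every tumour. For each tumour the left-end IR library was compared with its other 5 libraries, by the summed overlap of shares over 300 bp bins. In lane 4 the left-end JX library shared no bin with the IR library of the same tumour in 16 of 16 tumours (5 TAM+ and 11 TAM-). In each of these, the IR library overlapped most with the left-end JX library of another tumour of lane 4. Outside lane 4 the overlap of these 2 libraries was 0 in 1 of 103 tumours. The right-end JX libraries of lane 4 overlapped with their own tumour in 16 of 16. Among the other ends, the right-end PB library shared no bin with its tumour's left-end IR library in 4 of 16 tumours of lane 4 and in 33 of 103 elsewhere. The right-end IR library shared none in 0 of 16 and 11 of 103. Another tumour's right-end PB library overlapped more with the left-end IR library in 3 of 16 tumours of lane 4 and 20 of 103 elsewhere. For the right-end IR library this was so in 0 of 16 and 10 of 103. Outside lane 4 the best match was then in the same lane for 14 PB and 9 IR libraries. No library was given another label here. The JX tests and the counts they rest on are given with all libraries and again without the left-end JX libraries of lane 4.

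The files place the gene body at chr10:107600134-107714630 of mm9, the build in the submitters' processing notes, with the gene running towards higher positions. These are the lowest and highest positions listed inside the gene, over 25 introns. Upstream lines reached down to 107499460 and downstream lines up to 107769199, so the stretch assigned to the gene was 101 kb before the body, 114 kb of body and 54.6 kb after it. Kilobases below are counted from 107600134. The listed distances were not used, since those of upstream lines count from the gene's end, as those of downstream lines do.

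The promoter is printed because the called sites stood on both sides of it. The nearest called site before the body was at -1.80 kb and the nearest inside it at 4.83 kb. RefSeq gives the 300 bases around the start in GRCm38.p6 (chr10:108161848-108162147, plus strand, 250 before and 50 after the start), a build whose coordinates are not those of the sites. Capitals mark TA, the SB target, which reads the same on both strands.
Ppp1r12a promoter: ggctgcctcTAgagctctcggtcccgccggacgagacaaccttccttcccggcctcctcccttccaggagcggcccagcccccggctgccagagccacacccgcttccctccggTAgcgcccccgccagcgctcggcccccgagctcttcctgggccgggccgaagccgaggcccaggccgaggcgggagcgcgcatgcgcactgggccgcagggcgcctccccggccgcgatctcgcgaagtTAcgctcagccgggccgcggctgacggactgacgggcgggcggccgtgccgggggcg
This window holds TA 3 times and is 77% G or C. Among 32851 promoters of the same length 99.1% hold TA, with a median of 10, and 9.75% hold as few. TTAA, the PB target, which contains a TA, does not occur in it and occurs in 52.4% of the promoters. The sequence at the sites themselves was not used here.

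Called sites covered most of what was counted at the gene. They numbered 38 in IR (26 tumours), 56 in JX (26 tumours) and 53 in PB (29 tumours). They held 90.1%, 83.2% and 84.7% of the Ppp1r12a counts of these kinds. By tumours hit, Ppp1r12a ranked as number 2 of 1420 genes with a called site in IR, number 2 of 3659 in JX and number 1 of 1751 in PB. The median gene with a called site was hit in 1 tumour. Any line of the gene, also below the call, occurred in 119 tumours in IR, 117 in JX and 107 in PB. Of the gene's lines 28.1% in IR, 34.9% in JX and 22.9% in PB held 1 count. The IR position 107607535, called in TAM+ tumour 1, had counts in 23 tumours, with 98.8% of them in one tumour. A line alone was therefore not read as an insertion in its tumour, and other genes were not counted this way.

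**Figure D1:**
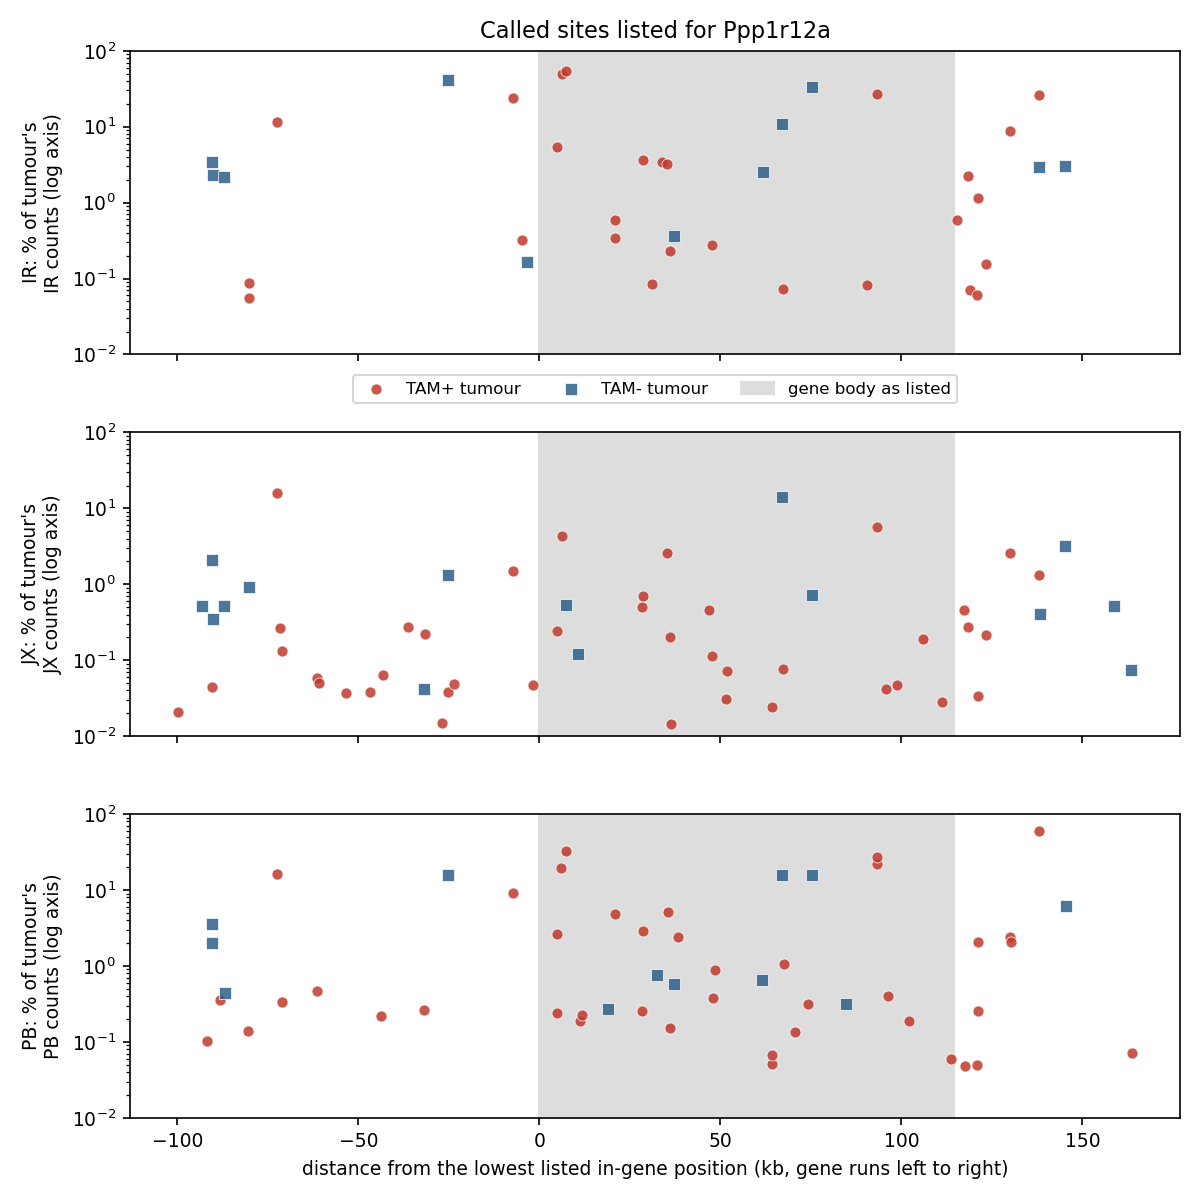
Each point is a called site, with its distance in kilobases from the lowest listed in-gene position across and its share of the tumour's counts up (log axis), for IR, JX and PB libraries from top to bottom. TAM+ tumours are red circles, TAM- tumours blue squares, and grey marks the gene body. The highest IR shares, 54.2% and 50.1% of counts, are TAM+ sites at 7.40 and 6.27 kb.

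The strongest insertions were dominant in their tumours. TAM+ tumour 1 had 54.2% of its IR counts at 107607535 in intron 1, against the gene, and 32.6% of its PB counts 33 bp away. TAM+ tumour 2 had 50.1% of its IR counts at 107606404 in intron 1, along the gene, and 19.5% of its PB counts 199 bp away. These sites lay at 7.40 and 6.27 kb, near the start of the body.

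TAM+ tumour 3 had 26.7% of its IR counts at 107693418 in intron 14. That position carried both orientation labels, with 613231 counts against and 485251 along the gene, and PB sites with 27.0% and 21.99% of PB counts on its 2 sides. TAM+ tumour 3 also had 3.60% of IR counts at 107628831 in intron 1. It was thus the one tumour of the highest 6 with a second called IR site.

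The next TAM+ sites lay outside the body. TAM+ tumour 4 had 26.03% of IR counts at 107737999, 23.4 kb past the gene's end, and 60.2% of its PB counts 53 bp away, the highest PB share of the gene. TAM+ tumour 5 had 24.2% of IR counts upstream, at 107592781 (-7.35 kb). TAM+ tumour 6 had 11.6% farther upstream, at 107527686 (-72.4 kb), and 16.3% of its PB counts beside it.

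Among TAM- tumours, TAM- tumour 1 had 41.0% of its IR counts upstream at 107574917 (-25.2 kb), along the gene, with 15.7% of PB counts beside it. TAM- tumour 2 had 33.4% at 107675364 in intron 5, along the gene, with 15.6% of PB counts beside it. TAM- tumour 3 had 10.997% at 107667062 in intron 3, against the gene, with 13.995% of JX and 15.9% of PB counts there. TAM- tumour 4 had 3 upstream sites, from -90.5 to -87.2 kb, with 7.91% of IR counts together.

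Other sites were smaller. TAM+ tumour 7 had 8.84% of IR counts downstream at 107730147, TAM+ tumour 8 5.45% at 107605058 in intron 1, and TAM+ tumour 9 3.46% and 3.23% at 2 intron 1 sites of opposite orientation. In TAM- tumours 5, 6 and 7 the highest sites held 3.02% and 2.92% downstream and 2.56% in intron 3. IR shares of the gene's sites ran from 0.0554% to 54.2% with a median of 0.598% in TAM+ tumours, and from 0.164% to 41.0% with a median of 2.92% in TAM- tumours. The gene held the highest IR site of 3 TAM+ and 2 TAM- tumours. Sites with over 1% of IR counts numbered 13 in 11 TAM+ tumours and 9 in 7 TAM- tumours. Of 147 called sites over all kinds, 4 tumours held 49 (33.3%): TAM+ tumours 16, 17 and 18 with 23, 12 and 7, and TAM- tumour 4 with 7. In TAM+ tumour 16, which had 689 called JX sites over all genes, no Ppp1r12a site exceeded 0.233% of its counts in any kind.

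Within the stretch, IR sites fell into the 3 regions in different numbers by arm. TAM+ tumours had 5 upstream, 13 intronic, 1 exonic and 8 downstream IR sites, and TAM- tumours 5, 4, 0 and 2. The exonic site, in exon 4 of TAM+ tumour 16, was small (0.0718% of IR counts), and 10 tumours had IR counts at its position, with no more than 47.9% of them in one tumour. The body held 47.4% of the gene's IR sites and 61.95% of those of all genes. It held 39.3% of its JX sites and 58.5% of its PB sites, beside 57.4% and 63.7% for all genes.

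Intron 1, the first stretch a transcript of the gene crosses after its first exon, held 9 IR sites in 8 TAM+ tumours and none in the 8 TAM- tumours with a called IR site. As shares of all tumours these were 8 of 72 (11.1%, exact 95% interval 4.92% to 20.7%) and 0 of 47. For 0 of 47 the exact upper limit is 7.55%, and 3 tumours, an approximate limit, would be 6.38%. Intron 1 held 5 JX sites in TAM+ and 2 in TAM- tumours, and 10 PB sites in 9 TAM+ and 2 PB sites in 2 TAM- tumours. Leaving out the left-end JX libraries of lane 4, the JX sites there were 7 in TAM+ and 4 in TAM- tumours. Intron 1 was singled out after its values were seen, so it was not tested. Outside intron 1, TAM+ IR sites lay in introns 2 and 14 and TAM- IR sites in introns 2, 3 and 5.

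Over the whole stretch the mean position per tumour did not separate the arms. In IR it averaged 46.4 ± 58.9 kb in TAM+ tumours (SD, n = 18; lowest -72.4, median 27.8, highest 138) and 48.7 ± 79.3 kb in TAM- tumours (SD, n = 8; -89.3, 64.3 and 145). The arms overlapped over nearly their whole ranges, and the two-sided exact permutation test gave p = 0.935, also after adjustment over the 3 kinds. In PB the means were 37.1 ± 61.4 kb (n = 22) in TAM+ and 33.7 ± 75.3 kb (n = 7) in TAM- tumours, with adjusted exact permutation p = 0.935. In JX they were 34.02 ± 54.6 kb (n = 14) in TAM+ and 22.3 ± 102 kb (n = 12) in TAM- tumours, with adjusted permutation p = 0.935. The JX difference of 11.7 kb was -4.11 kb without the left-end JX libraries of lane 4, with adjusted permutation p = 0.935.

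The number of tumours hit was then set against the arm and the donor, with two-sided Fisher's exact tests over all genes hit in at least 3 tumours and Benjamini-Hochberg adjustment over those genes. In IR 18 of 72 TAM+ tumours had a called Ppp1r12a site (25.0%, exact 95% interval 15.5% to 36.6%) and 8 of 47 TAM- tumours (17.0%, 7.65% to 30.8%; adjusted exact p = 0.920). In PB it was 22 of 72 TAM+ tumours (30.6%, 20.2% to 42.5%) and 7 of 47 TAM- tumours (14.9%, 6.20% to 28.3%; adjusted exact p = 0.846, unadjusted p = 0.0794). In JX it was 14 of 72 TAM+ (19.4%, 11.1% to 30.5%) and 12 of 47 TAM- tumours (25.5%, 13.9% to 40.3%; adjusted exact p = 1). No arm difference passed the test for this gene. Among all genes tested it passed for 0% of 40 with IR sites, 0% of 244 with JX sites and 0% of 55 with PB sites. Unadjusted p fell below 0.05 for 0, 2 and 1 of these genes. Genes hit in only 3 tumours are among them and in the adjustment, though no split of 3 tumours between these arms could pass.

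**Figure D2:**
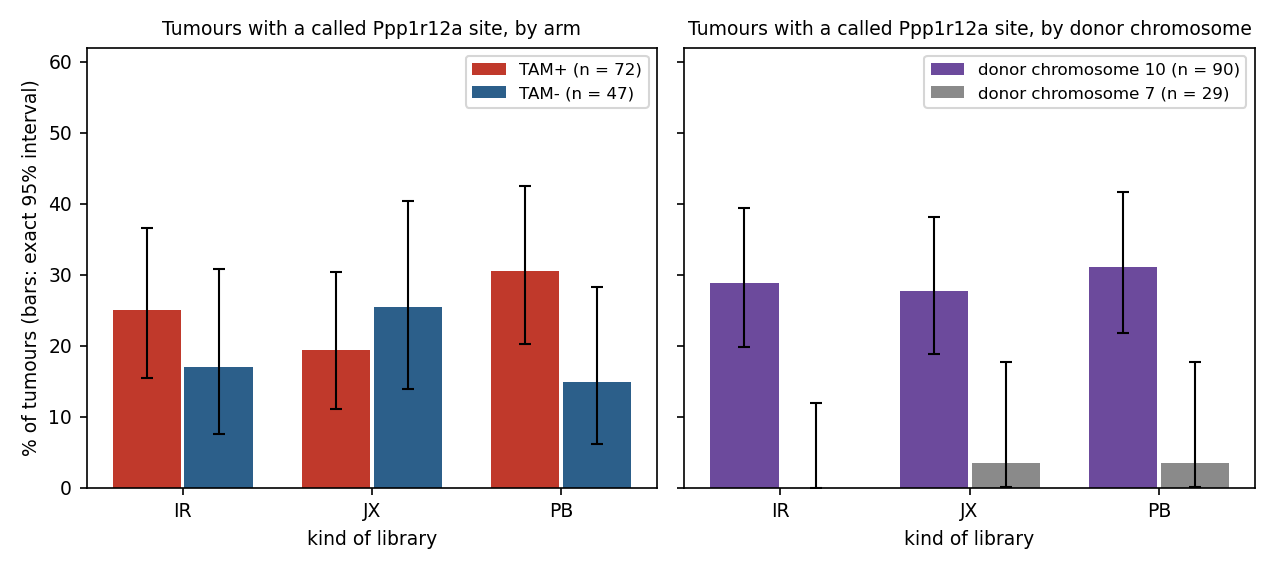
Bars give the percentage of tumours with a called Ppp1r12a site in IR, JX and PB libraries, by arm on the left (72 TAM+ and 47 TAM- tumours) and by donor chromosome on the right (90 and 29 tumours), and lines the exact 95% interval. Intervals of the arms overlap in every kind, and no tumour with the donor on chromosome 7 had a called IR site.

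The 2 ends and the lanes bear on the PB difference. The PB percentages differed by 15.7 points with both ends, by 7.24 points with the left end alone and by -1.09 points with the right end alone, where 13 of 72 TAM+ and 9 of 47 TAM- tumours were hit. Within lanes the pooled difference was 19.3 points (exact test of this gene alone, unadjusted p = 0.0365). Among 11 sets of tumours with the same lane or lanes and both arms, the PB share was higher in TAM+ in 7, lower in 3 and equal in 1. In IR it was higher in 5, lower in 3 and equal in 3.

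Among tumours with the donor on chromosome 10 the same order held in IR and PB. A called site was present in 18 of 53 TAM+ tumours and 8 of 37 TAM- tumours in IR, and in 21 of 53 and 7 of 37 in PB, with adjusted p = 0.744 and 0.593 in Fisher's exact tests. Before adjustment these Fisher's exact tests gave p = 0.243 in IR and 0.0409 in PB. In JX a called site was present in 14 of 53 TAM+ and 11 of 37 TAM- tumours. Without the left-end JX libraries of lane 4, and over both donors, 14 of 72 TAM+ and 12 of 47 TAM- tumours had a called JX site (adjusted p = 1 in Fisher's exact test, as with all libraries; 0% of 288 genes passed).

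The hits were also set against the donor chromosome. The gene was chosen on hits in these same tumours, of which 90 of 119 had the chromosome 10 donor, so the p-values are no independent support. With the donor on chromosome 10, where Ppp1r12a lies, 26 of 90 tumours had a called IR site (28.9%, 19.8% to 39.4%), against 0 of 29 with the donor on chromosome 7 (adjusted p = 0.00867 in Fisher's exact test). For 0 of 29 the exact upper limit is 11.9%, and 3 tumours, an approximate limit, would be 10.3%. Fisher's exact test passed for 12.5% of genes in IR. In PB 28 of 90 tumours with the chromosome 10 donor were hit (31.1%, 21.8% to 41.7%) and 1 of 29 with the chromosome 7 donor (3.45%, 0.0873% to 17.8%; adjusted exact p = 0.0398), where 7.27% of genes passed. The IR call was lost with sites in the body alone (adjusted exact p = 0.119) and with the left end alone (0.0523). The PB call was lost with a 5% call (adjusted exact p = 0.342), without spread positions (0.0567), in the body alone (0.486) and with the left end alone (0.177). The PB exception, TAM+ tumour 21, had 5 called sites of 24 to 92 counts in a PB library of 10515 counts.

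In JX 25 of 90 tumours with the chromosome 10 donor and 1 of 29 with the chromosome 7 donor were hit (adjusted p = 0.205 in Fisher's exact test; 0% of genes passed). The JX exception, TAM- tumour 11, was of lane 4, and its larger site had the position of the main site of TAM+ tumour 1, also of lane 4. Without the left-end JX libraries of lane 4 the counts were 26 of 90 and 0 of 29 (adjusted p = 0.0408 in Fisher's exact test), where 1.39% of genes passed. Without the 16 tumours of lane 4 they were 21 of 77 and 0 of 26, with adjusted exact p = 0.107 (0.885% of 226 genes passed).

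**Figure D3:**
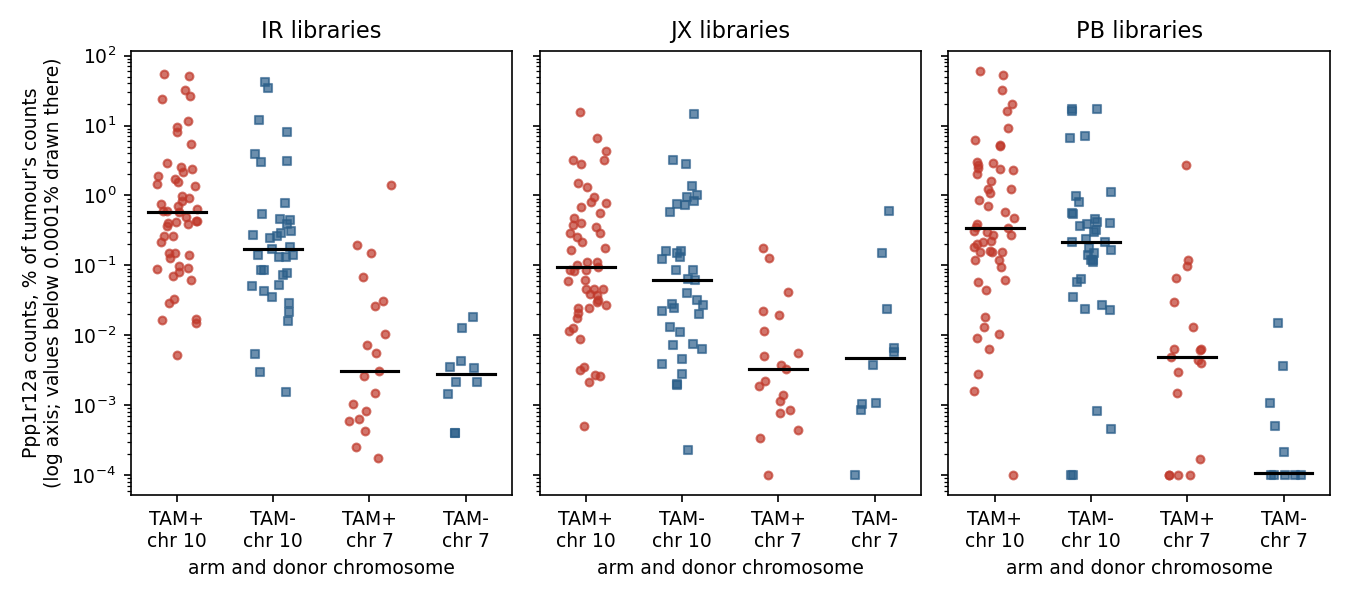
Each point is the share of a tumour's IR, JX or PB counts listed for Ppp1r12a, called or not (percent, log axis, values below 0.0001% drawn there), by arm and donor chromosome, and black lines are medians. With the donor on chromosome 10 both arms spread over more than 3 orders of magnitude in IR, around medians of 0.582% in TAM+ and 0.171% in TAM- tumours.

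The share of a tumour's counts at the gene was compared between arms within the chromosome 10 donor, by permutation tests of the mean adjusted over the 3 kinds. In IR it averaged 4.75 ± 11.6% in 53 TAM+ tumours (SD; lowest 0.00514%, median 0.582%, highest 54.3%) and 3.01 ± 8.81% in 37 TAM- tumours (0.00155%, 0.171% and 41.3%). The means differed by less than the spread between tumours (adjusted permutation p = 0.689). Over 1% of IR counts lay at the gene in 18 of 53 TAM+ and 7 of 37 TAM- tumours, and over 10% in 6 and 3.

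In PB the share averaged 4.48 ± 11.9% in TAM+ tumours (median 0.347%, highest 60.3%) and 1.96 ± 4.70% in TAM- tumours (median 0.218%, highest 17.2%; adjusted permutation p = 0.689). In JX it averaged 0.883 ± 2.43% in TAM+ and 0.761 ± 2.45% in TAM- tumours (adjusted permutation p = 0.812). The JX means without the left-end JX libraries of lane 4 were 0.640 ± 1.29% in TAM+ and 0.797 ± 2.56% in TAM- tumours (adjusted permutation p = 0.758). On a log10 scale, after adding 1e-06 to the share, the IR difference was 0.44 units, with permutation p = 0.0372 before and 0.112 after adjustment.

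With the donor on chromosome 7 the shares were close to 0 in both arms. The IR medians were 0.00313% in 19 TAM+ tumours and 0.00279% in 10 TAM- tumours. One of these TAM+ tumours reached 1.40% of IR counts without a called site.

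None of the 5 control tumours was listed with the donor on chromosome 10, and 3 were listed with chromosome 7, where shares were near 0 in both arms too. In these 5 the IR share was at most 0.0163%, with no called site in IR or PB and 1 in JX. In control DNAs no called site was found in IR or JX, and 1 in PB.

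**Figure D4:**
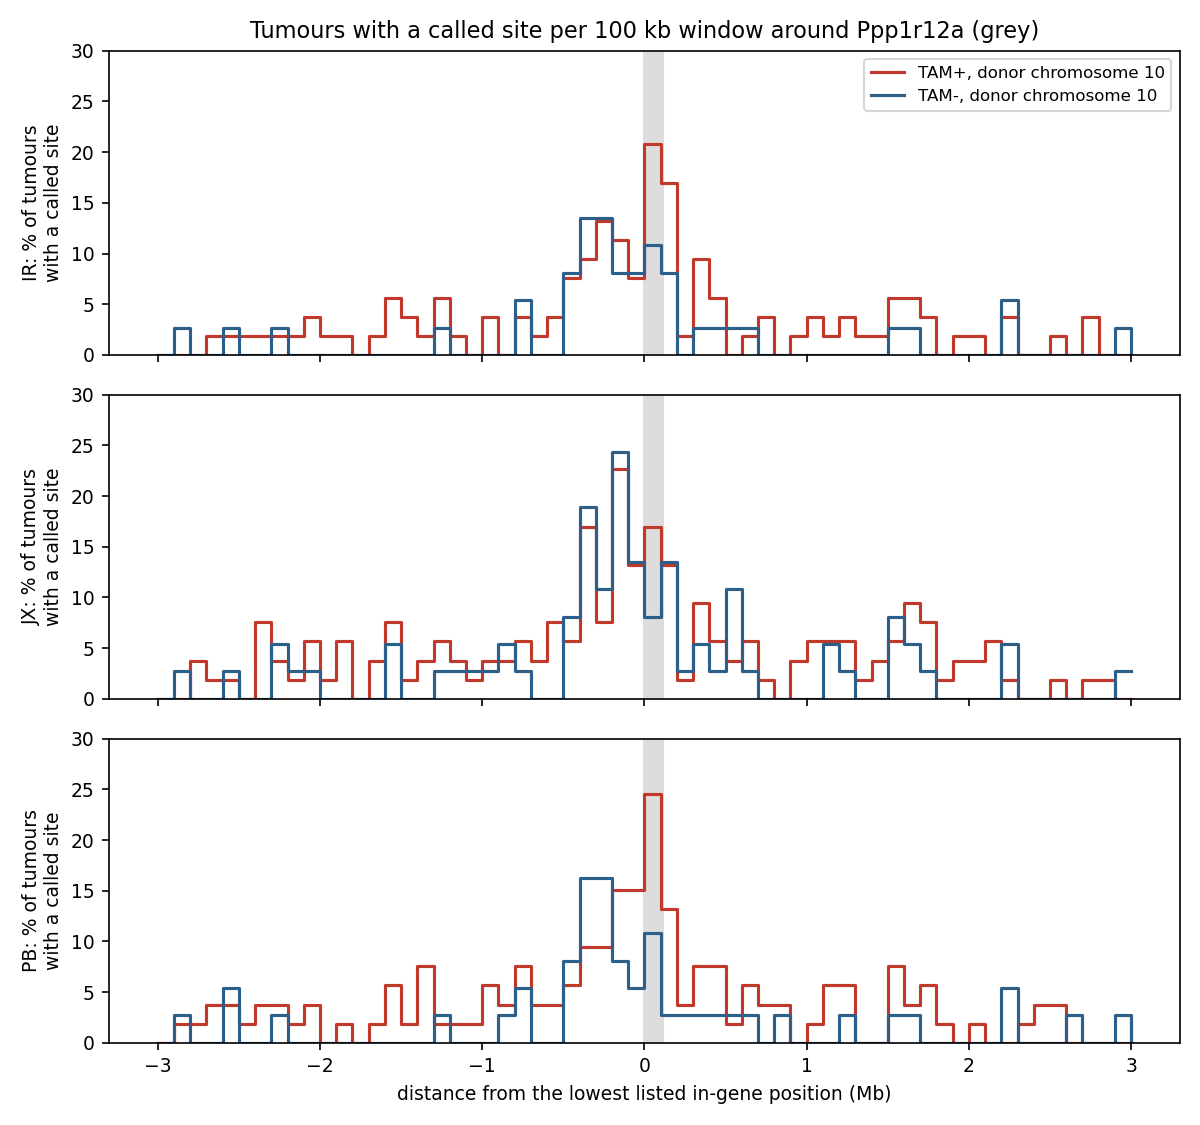
The percentage of tumours with a called site in each 100 kb window, from 3 Mb before to 3 Mb after the lowest listed in-gene position, is drawn for 53 TAM+ (red) and 37 TAM- (blue) tumours with the donor on chromosome 10, in IR, JX and PB libraries. Grey marks the body of Ppp1r12a. Over both arms, the window holding most of the body is the highest in IR and PB. In JX the window from -200 to -100 kb is the highest. In TAM- tumours alone, the windows from -400 to -200 kb are higher than the body's window in IR (13.5% against 10.8%) and PB (16.2% against 10.8%).

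Windows of 100 kb around the gene, with all libraries, show how local the sites were among the 90 tumours with the chromosome 10 donor. The window from 0 to 100 kb was hit in 15 of them in IR, the highest of 61 windows, whose median was 1. The gene was chosen for its hits in these same tumours, so a high window at it is no independent support. Nearby windows were hit in 10, 12, 9 and 7 tumours from -400 to 0 kb and in 12 from 100 to 200 kb. By arm, the window from 0 to 100 kb was hit in 11 of 53 TAM+ tumours (20.8%) and 4 of 37 TAM- tumours (10.8%). In TAM- tumours the windows from -400 to -300 and -300 to -200 kb were higher, at 13.5% each. In PB the window from 0 to 100 kb was highest over both arms, with 17 tumours. These were 13 of 53 TAM+ (24.5%) and 4 of 37 TAM- (10.8%). Nearby PB windows were hit in 11, 11, 11 and 10 tumours from -400 to 0 kb and in 8 from 100 to 200 kb. In TAM- tumours the PB windows from -400 to -300 and -300 to -200 kb were higher, at 16.2% each. In JX the window from 0 to 100 kb was hit in 12 tumours, and the highest window, from -200 to -100 kb, in 21. Of all called sites on chromosome 10 in these tumours, Ppp1r12a held 9.18% in TAM+ and 7.75% in TAM- tumours in IR. In PB it held 10.03% in TAM+ and 7.45% in TAM- tumours, and in JX 6.95% and 4.80%.

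Counted by site, orientation did not depart from an even split. Sites along the gene, as the table labels them, numbered 22 of 38 in IR (57.9%), 29 of 56 in JX (51.8%) and 32 of 53 in PB (60.4%). Two-sided exact binomial tests over all genes with enough sites gave adjusted p = 1, 1 and 0.636, and passed for 7.14% of 14 genes in IR, 0% of 34 in JX and 0% of 17 in PB. These tests count each called site by its main label, although a tumour can hold many, so they are not tests over tumours. TAM+ tumours 16 and 17 each held 11 of the JX sites. The lesser label held over 10% of counts at 5 of the 38 IR sites. Without the 4 tumours with the most sites, 18 of 27 IR, 16 of 31 JX and 22 of 40 PB sites lay along the gene. Without the left-end JX libraries of lane 4, 28 of 59 JX sites lay along the gene. In intron 1, 6 of 9 IR sites lay along the gene. By arm, 16 of 27 IR sites lay along the gene in TAM+ and 6 of 11 in TAM- tumours.

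Most IR sites were read from one SB end. The lesser end held a median of 0.0895% of the counts of a site, and over 10% at 6 of 38 sites. At those 6 sites the 2 ends carried the same orientation label 4 times. The left end led at 20 sites and the right end at 18.

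PB sites lay beside most of the IR sites. PB counts of the same tumour lay within 250 bp of 34 of 38 IR sites (23 of 27 in TAM+ and 11 of 11 in TAM- tumours). A called PB site lay there at 25 (17 in TAM+ and 8 in TAM-), at distances of 0 to 249 bp. At 3 of the 25 (2 in TAM+ and 1 in TAM- tumours) 2 PB sites were called, on both sides of the IR site, and the higher of them is counted here. At 24 of the 25 the PB site carried the opposite orientation label, and at 24 it was read mainly from the same end, left or right. At 23 of 25 the higher PB site lay towards lower positions for left-end sites along the gene and right-end sites against it, and towards higher positions for the others. Outside these 23 were the sites at 107621044 of TAM+ tumour 12, on the other side, and at 107636317 of TAM+ tumour 16, at the same position. The 25 pairs are not all different PB sites. In TAM- tumour 4 the PB site at 107509688 was matched to IR sites at 107509595 and 107509877, and only the latter pair had equal labels. In TAM+ tumour 16 the PB site at 107519746 was matched to IR sites at 107519768 and 107519840.

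**Figure D5:**
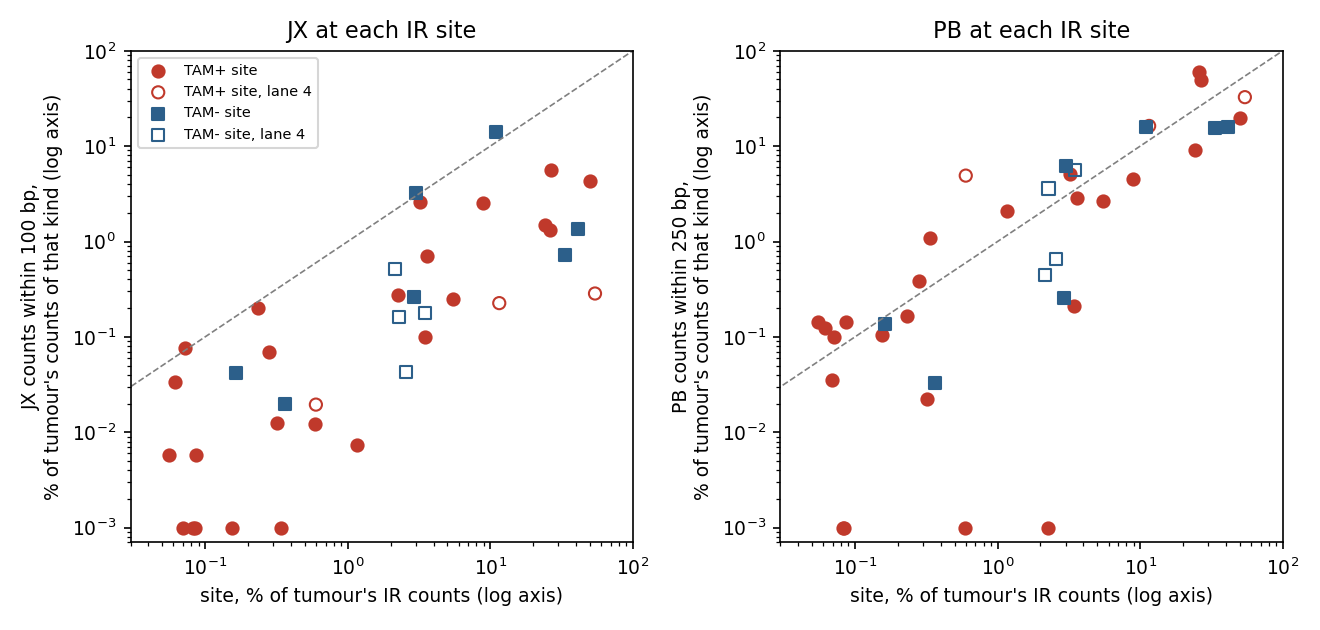
For each called Ppp1r12a IR site, the share of the tumour's IR counts is set against the share of its JX counts within 100 bp (left) and of its PB counts within 250 bp (right), on log axes with values below 0.001% drawn there. TAM+ sites are red circles, TAM- sites blue squares, open symbols are tumours of lane 4, and the dashed line marks equal shares. JX shares lie below the line at most sites and PB shares on both sides of it.

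The boundary of the SB and PB parts was read at most of these sites too. JX counts of the same tumour lay within 100 bp of 22 of 27 IR sites in TAM+ tumours and 11 of 11 in TAM- tumours. Among sites with at least 1% of IR counts they lay at 13 of 13 in TAM+ and 9 of 9 in TAM- tumours. The JX share divided by the IR share had a median of 0.0503 in TAM+ (0 to 1.06) and 0.0714 in TAM- tumours (0.0167 to 1.27). These JX values include the left-end JX libraries of lane 4. Over both arms, JX counts lay at 7 of 7 IR sites of lane 4 and 26 of 31 elsewhere. The median ratios were 0.0326 in lane 4 and 0.0672 elsewhere. For the PB share the median ratio was 0.711 in TAM+ (0 to 8.20) and 0.467 in TAM- tumours (0.0872 to 2.06). These ratios compare different libraries and were not tested.

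At 12 of the 38 positions another tumour had the highest JX share. In lane 4 this was so at 6 of 7 positions, each time with a tumour of the same lane, and elsewhere at 6 of 31, never in the same lane. For example, the IR site of TAM+ tumour 6 at 107527686 held 0.226% of its own JX counts and 15.8% of those of TAM+ tumour 12. JX sites can therefore be credited to another tumour than the IR site at the same position. Where each tumour kept its own calls, 17 of 72 TAM+ and 12 of 47 TAM- tumours had a called JX site.

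Over kinds, 26 of 72 TAM+ tumours (36.1%) and 14 of 47 TAM- tumours (29.8%) had a called site in at least 1 kind. All 3 kinds were called in 10 TAM+ and 5 TAM- tumours. Of tumours with a called IR site, 15 of 18 TAM+ and 6 of 8 TAM- tumours also had a called PB site. A PB site alone was called in 6 TAM+ tumours and 1 TAM- tumour, and a JX site alone in 1 TAM+ and 5 TAM- tumours. Of these 5, TAM- tumours 9 and 11 are of lane 4. Their larger JX sites lay at positions of IR sites of other lane 4 tumours, TAM- tumour 4 and TAM+ tumour 1. Without the left-end JX libraries of lane 4, all 3 kinds were called in 10 TAM+ and 6 TAM- tumours. At least 1 kind was then called in 26 TAM+ and 13 TAM- tumours.

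The genes hit in the tumours most like those of Ppp1r12a were mostly its neighbours. Likeness was the number of tumours with both genes divided by the number with either (Jaccard index), over 119 tumours and genes sharing at least 3 tumours. Such genes numbered 10 in IR, 30 in JX and 14 in PB. Most tumours hit had the chromosome 10 donor. In IR these were 26 tumours for Ppp1r12a and 26 for Otogl, beside 0 and 1 with the chromosome 7 donor. Likeness was not tested and no overlap expected from the donor was computed. In IR the 5 highest were Syt1, a synaptic calcium sensor (0.241, 7 of 29 tumours), Otogl, an otogelin-like inner ear gene (0.233, 10 of 43), Pawr, a pro-apoptotic regulator (0.207, 6 of 29), Lin7a, a scaffold of cell junctions (0.143, 4 of 28), and Ptprq, a receptor phosphatase of hair cells (0.138, 4 of 29). In PB they were Syt1 (0.286, 10 of 35), the neuron navigator Nav3 (0.273, 9 of 33), Otogl (0.227), the liprin Ppfia2 (0.194) and Lin7a (0.182). In JX they were Otogl (0.250), Syt1 (0.219), and Csmd1, Pawr and Ptprq (0.214 each). All lie on chromosome 10 except Csmd1, a large membrane protein gene on chromosome 8. Without the left-end JX libraries of lane 4 the JX order was Otogl (0.255), Pawr and Ptprq (0.250 each), Syt1 (0.206) and Nav3 (0.189).

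The 10 neighbours listed around the gene were hit in each kind, in a median of 8 tumours in IR, 8.5 in JX and 7.5 in PB. None of those tested passed the arm test (7 genes by IR, 8 by JX and 8 by PB sites). In IR Otogl was hit in 16 of 72 TAM+ and 11 of 47 TAM- tumours, Nav3 in 9 and 2, Pawr in 8 and 1, and Ppfia2 in 8 and 1. Syt1 was hit in 6 and 4, Ptprq in 4 and 3 and Lin7a in 4 and 2. As percentages of each arm, 4 of the 7 genes tested in IR were higher in TAM+ and 3 lower. The lowest unadjusted p of the list was that of Ppfia2 in PB, with 8 of 72 TAM+ and 0 of 47 TAM- tumours (p = 0.0214 in Fisher's exact test). Ptprq, Syt1 and Lin7a were hit in at least 3 tumours in every kind and Acss3 in JX and PB. Myf5 and Myf6, factors of muscle cell fate, were hit in 1 or 2 tumours of each kind.

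The rest of the pathway was read from a list. Of 39 genes of myosin phosphatase and actomyosin regulation, called sites were listed for 1 gene in the IR, 10 in the JX and 4 in the PB libraries. These were 2.56%, 25.6% and 10.3% of the list, beside 6.39%, 16.5% and 7.89% of the 22206 genes listed in these tumours. The JX shares include positions spread over tumours, where at least 3 tumours had counts and none held over 50% of them. Such positions made up 2348 of 5255 JX sites of all genes, 19 of 1853 in IR and 40 of 2419 in PB. The list was not tested against all genes. The median was 0 tumours of each kind, both for the list and for all listed genes. Prkg1, a cGMP-dependent kinase that acts on myosin phosphatase, was hit in 2 of 72 TAM+ and 0 of 47 TAM- tumours in IR. JX sites were called in 7 TAM+ and 0 TAM- tumours (adjusted p = 1, unadjusted p = 0.0412 in Fisher's exact test), with 4 of the 7 sites at positions spread over tumours. PB sites were called in 2 TAM+ and 0 TAM- tumours. None of its tumours in IR or PB had a called Ppp1r12a site of the same kind, and 2 in JX did. Of its 2 tumours in IR and 2 in PB, 1 and 2 had the chromosome 7 donor. With that donor Ppp1r12a was called in 0 of 29 tumours in IR and 1 of 29 in PB. Overlap in so few tumours was not tested.

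Cdc42bpa, a kinase of actomyosin regulation, was hit in JX in 1 TAM+ and 2 TAM- tumours (unadjusted p = 0.561 in Fisher's exact test), at positions spread over tumours. Among close relatives of Ppp1r12a, Ppp1r12b had a called PB site in 1 TAM+ tumour (0.955% of counts), which also had one in Ppp1r12a. Ppp1r16b had a called PB site with 29.4% of counts in a TAM+ tumour without a called PB site in Ppp1r12a. No called site was listed for Ppp1cb in any kind.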

How the data were processed

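Genomic DNA of Lazy Piggy medulloblastomas was sheared, joined to splinkerette adaptors, cut with BamHI and amplified by nested PCR from the SB part, the PB part or their boundary, per the labels' protocols. The authors deposited 1 table of read counts per insertion position, orientation and library, with gene, location and intron as listed. Positions are in mm9, a build taken from the submitters' processing notes. No source used here names the aligner, annotation or filters. Arm, donor chromosome and lane came from the authors' deposited sample sheet.

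Counts of both ends and of repeat lanes were summed per animal and kind of library. Animals with no usable arm (8), control tumours (5) and control DNAs (9) entered no comparison. Fisher's exact tests ran over genes hit in at least 3 animals and binomial tests over genes with at least 6 sites, each with Benjamini-Hochberg adjustment. Shares and positions were compared by permutation tests (100000 resamples, or exact where a group had under 10 animals). The gene, the lists and the tests were chosen with earlier results of these data known. Named genes were Ppp1r12a, the 5 most alike per kind and list members hit in at least 3 animals. Myf5, Myf6, Acss3 in IR, Prkg1 in IR and PB, Ppp1r12b, Ppp1r16b and Ppp1cb were added after their values were seen. The alternatives without lane 4 libraries and without the 4 tumours with the most sites were also chosen after seeing the data. Tests were checked on simulated data. Python 3.11.15, pandas 2.3.3, numpy 2.4.6, scipy 1.17.1, statsmodels 0.14.6 and matplotlib 3.10.9 were used.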

Additional observations from a re-analysis of the deposited data

Results flagged for a closer look

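Of 14 groups of 4 to 10 animals tested for a value far from the others, 8 had one. The test gives about 1 in 20 by chance only for normally distributed values. Shares of counts were strongly skewed, so that rate does not hold for them and no excess can be read from the 8. All 8 were high shares of counts at Ppp1r12a in groups whose other values were near 0. Among the 10 TAM- tumours with the donor on chromosome 7, TAM- tumour 11 had 0.5906% of its JX counts at the gene, with the next at 0.149%. It is of lane 4, whose left-end JX libraries shared no bin with the IR libraries of their tumours. In the same group 1 tumour had 0.01494% of PB counts, with the next at 0.00361%.

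In the 8 tumours with no usable arm the highest shares were 1.081% in IR (next 0.301%), 0.1305% in JX (next 0.0457%) and 1.666% in PB (next 0.225%). A called PB site was present in 1 of these 8 tumours, against 0 of 5 control tumours. The highest control tumour had 0.1048% of JX counts, with the next at 0.00318%. The highest control DNA had 1.639% in JX (next 0.00963%) and 2.714% in PB (next 0.479%). These were 1 count of 61 in JX and 13 counts of 479 in PB, the smallest control DNA libraries of these kinds.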

How the results depend on the processing

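Of 166 recomputed values, 132 kept their direction and side of the threshold, 24 reversed, 6 lost and 4 gained a pass. None of the reversed values passed its test in either form, and the causes were not tested beyond how each alternative was built. The arm difference in tumours hit (main 7.98, -6.09 and 15.7 points in IR, JX and PB) became 2.36 points in JX with a 0.1% call, 5.38 in the body alone and 8.45 with the right end. In PB it became -1.09 with the right end, and 19.3 within lanes, where this gene alone was tested. The donor difference lost its pass in IR in the body alone (16.7 points) and with the left end (23.3). It lost its pass in PB with a 5% call (14.3), without spread positions (24.3), in the body (16.6) and with the left end (26.6). In JX it passed with a 0.1% call (49.4), within lanes (26.8, this gene alone) and without the left-end JX libraries of lane 4 (28.9).

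The arm difference in share became -0.0645 points in IR with the right end. In JX it became -0.0702 in the body, -0.0348 with the left end, -0.157 without the left-end JX libraries of lane 4 and -0.192 without that lane's tumours. Sites along the gene fell below an even split in IR with a 0.1% call (47.7%) and in PB with the right end (41.9%). In JX they did so with a 5% call (42.1%), with the right end (49.3%), without lane 4's left-end JX libraries (47.5%) and without its tumours (48.0%). The arm difference in mean position became 16.2 kb in IR with a 0.1% call, 0.0636 without spread positions and 26.05 with the right end. In JX it became -4.11 and -9.57 kb without the lane 4 libraries or tumours. In PB it became -4.85 kb with 100 bp merging, -9.53 without spread positions, -7.49 in the body and -16.0 without the 4 tumours with the most sites. No paired analysis was possible because the animals of the arms share no replicate numbers. PB depth went down to 1714 counts in a tumour, which limits the PB share there.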
